A study of Mus musculus with 8 samples.

Results

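Voltage-gated sodium channels and the hyperpolarization-activated pacemaker channels were followed through RNA-seq of mouse hearts that had lost Mettl3 in cardiomyocytes. The 6 genes, Scn4a, Scn7a, Scn3b, Scn4b, Hcn2 and Hcn4, were taken by gene symbol from a table of 23045 genes, and all 6 were found and tested. Heart libraries of WT mice (Mettl3lox/lox without Cre, n = 4) were compared with those of Mettl3 KO mice (Mettl3lox/lox with αMHC-MerCreMer, n = 4), to ask which transcripts differ once the enzyme that writes N6-methyladenosine (m6A) on RNA is removed from heart muscle cells. Both groups carried loxP-flanked Mettl3, and mice of both had received 100 µg tamoxifen per g body weight on 7 days, at an age of 10 to 16 weeks at injection. MerCreMer is a Cre recombinase that tamoxifen activates, and the αMHC promoter makes it in cardiomyocytes, so that the deletion was aimed at these cells. Mettl3 was not measured by cell type here. The WT mice lacked the Cre, so an effect of the recombinase itself and an effect of the deletion cannot be told apart. The time between tamoxifen and collection of the hearts, and so the age at collection, is not given in the sources used here. The labels do not state that each library came from another animal, and the p-values measure the spread between these libraries.

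A voltage-gated sodium channel is built around a large α subunit, which forms the pore that opens on depolarization and carries the upstroke of the action potential. Small β subunits with 1 membrane-spanning segment sit beside the pore, tune its gating and bind other cells and the matrix. HCN channels open on hyperpolarization and are modulated by cyclic AMP, and they carry the inward pacemaker current ("funny current") of the sinus node, where Hcn4 is the dominant subunit. Working ventricular muscle is known for little of this current.

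The values were normalized read counts, rounded to whole numbers. Library totals lay between 2839589 and 2916986. The underlying reads, inferred from gaps between low values, numbered 2731615 to 3061205 in WT and 2631906 to 3052069 in Mettl3 KO hearts. Where a gene was at 0, up to 3 reads remain possible, which is a normalized read count of 2.78 to 3.33 depending on the library, and this floor covers counting error only. The lowest value of the 6 genes was 6, for Scn3b in WT library 4, which lies above the floor. Mettl3 itself was lower in every Mettl3 KO library (74, 68, 69 and 78) than in every WT library (105, 133, 118 and 107), and its log2 fold change was -0.67 (limma, SE 0.10, adjusted p = 0.000184).

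Mettl3 KO library 1 stood apart from the other 7. On the first principal component of what genotype left unexplained it lay at 0.782, against -0.298 to 0.289 for the others. The atrial marker Bmp10 was at 0 in every WT library as well as Mettl3 KO library 1, but had 195, 158 and 358 normalized read counts in Mettl3 KO libraries 2 to 4. WT library 3 had 0 normalized read counts of the atrial light chain Myl7, where the other WT libraries had 26, 21 and 23 and the Mettl3 KO libraries had 23, 65, 90 and 119. Without WT library 3 the log2 fold changes were -0.43 for Scn4a, 0.31 for Scn7a, -0.80 for Hcn2 and -1.33 for Scn4b, which then missed the threshold (limma adjusted p = 0.0504). Changes of the called channel genes without Mettl3 KO library 1 are given beside their main values. Cardiomyocyte markers such as Myh6 (4882 to 5613) and Tnnt2 (2566 to 3003) were abundant in all 8 libraries. Sums of 8 endothelial markers were 4858 to 5036 in WT and 4434 to 4839 in Mettl3 KO libraries. Of these, 4 were lower (Kdr, Tie1, Cdh5 and Fabp4) and 1 higher (Vwf, log2 fold change 0.45). Smooth muscle and pericyte markers summed over 9 genes to 4722 to 5138 and 4388 to 4689. Only Abcc9 of this list was called, as lower (2180 ± 85.9 to 1902 ± 63.2, SD, n = 4), and 8 did not pass the test. Macrophage marker sums overlapped at 1208 to 1439 and 1214 to 1464. The epicardium, the outer cell layer of the heart, was read from 6 markers. Their sums were 98 to 170 in WT and 178 to 280 in Mettl3 KO libraries, with a median log2 fold change of 1.17. Of the 6, 2 rose, Muc16 (45.8 ± 16.9 to 110 ± 26.0, SD, n = 4) and Upk3b, and 4 did not pass the test. Wt1 alone had a negative log2 fold change (-0.21). Sums of 5 blood cell markers overlapped at 174 to 285 and 123 to 199, and the part of these lists in the channel gene changes was not tested.

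Of the 6 genes, 3 fell (Hcn2, Scn4a and Scn4b), 1 rose (Scn7a), and Scn3b and Hcn4 did not pass the test. A gene was called at an adjusted p under 0.05 in limma with Benjamini-Hochberg adjustment over 20313 tested genes. Of all tested genes 7.91% were called, 4.72% as higher in Mettl3 KO hearts and 3.19% as lower. The groups did not overlap for 3 of the 6 genes, Hcn2, Scn4a and Scn7a, against 11.5% of all tested genes. The median log2 fold change was -0.30 over the 6 genes and -0.01 over all tested genes. All 4 calls were lost when limma was run without its mean-variance trend (adjusted p 0.0829 to 0.246). Whether the changes of the 6 genes differ from each other was not tested. Fewer cells of a type and less RNA per cell cannot be told apart in RNA of heart tissue. The sources used here do not state which parts of the heart each library held, and whether atrial tissue was sampled alike was not tested.

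**Figure D1:**
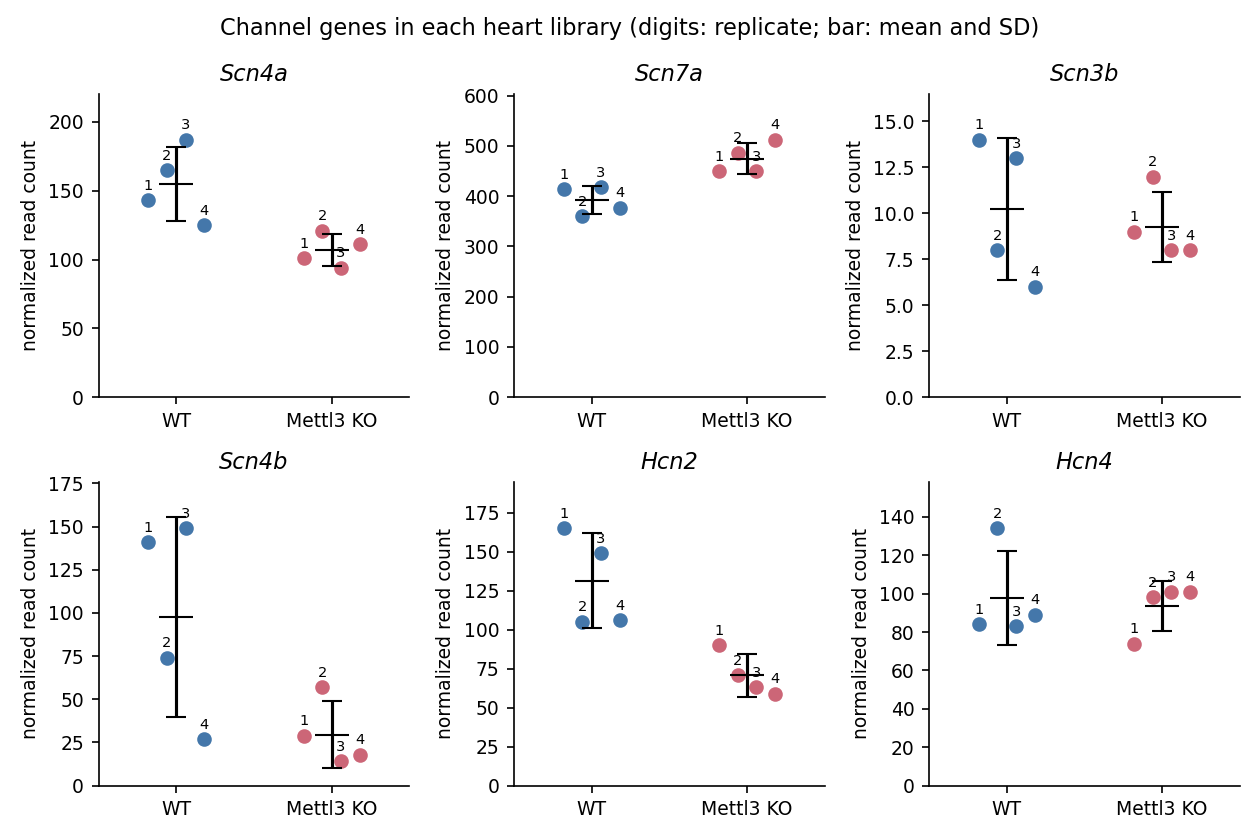
Normalized read count (y axis, from 0) of each of the 6 channel genes in the 4 WT (blue) and 4 Mettl3 KO (red) libraries, with the replicate number at each point, the mean as a long bar and the SD as whiskers. Hcn2 (59 to 90 against 105 to 165) and Scn4a (94 to 121 against 125 to 187) lie below the WT points in all Mettl3 KO libraries, Scn7a lies above them, and Scn4b overlaps through WT library 4 at 27.

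The promoters of the 4 called genes are shown so that the sequence in front of genes that changed in these hearts can be read beside their values. Each is the 250 bases before the annotated start, 5′ to 3′ on the gene's strand, from RefSeq on GRCm38.p6, which is an earlier build than the mm39 of the expression table. Capitals mark matches on either strand to GGGCGG (a GC box), AGGTGT (an element of T-box factors), AGATAA (an element bound by factors of the family that GATA4 belongs to) or CATTCC (an element of TEAD factors), and the MEF2 element was searched as well. The Hcn2 promoter lies at chr10:79716384-79716633 (plus strand), that of Scn4a at chr11:106349391-106349640 (minus strand), that of Scn4b at chr9:45138374-45138623 (plus strand) and that of Scn7a at chr2:66784911-66785160 (minus strand).
Hcn2: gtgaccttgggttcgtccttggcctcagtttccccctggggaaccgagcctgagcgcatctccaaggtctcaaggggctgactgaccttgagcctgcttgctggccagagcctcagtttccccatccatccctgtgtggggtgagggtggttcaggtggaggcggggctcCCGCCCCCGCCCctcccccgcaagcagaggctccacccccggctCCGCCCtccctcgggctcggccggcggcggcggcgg
Scn4a: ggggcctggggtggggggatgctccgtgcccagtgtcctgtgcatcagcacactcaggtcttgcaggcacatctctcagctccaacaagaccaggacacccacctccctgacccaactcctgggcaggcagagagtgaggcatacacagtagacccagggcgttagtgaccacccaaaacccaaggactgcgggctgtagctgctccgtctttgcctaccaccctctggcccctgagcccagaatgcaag
Scn4b: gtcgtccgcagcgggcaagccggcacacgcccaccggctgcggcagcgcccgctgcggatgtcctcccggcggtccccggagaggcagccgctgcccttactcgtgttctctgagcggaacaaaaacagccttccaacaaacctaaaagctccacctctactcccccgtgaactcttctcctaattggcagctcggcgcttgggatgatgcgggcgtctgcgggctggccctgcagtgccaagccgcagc
Scn7a: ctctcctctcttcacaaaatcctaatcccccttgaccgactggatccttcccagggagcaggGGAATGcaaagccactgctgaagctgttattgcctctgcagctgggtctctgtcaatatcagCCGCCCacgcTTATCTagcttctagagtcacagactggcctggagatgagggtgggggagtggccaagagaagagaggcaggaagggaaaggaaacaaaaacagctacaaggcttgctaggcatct

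The Hcn2 window held 3 GC boxes, of which a pair run together in the first capital stretch, and no other of these motifs. The windows of Scn4a and Scn4b held none of the 5 motifs, and that of Scn7a held 1 GC box, 1 GATA element and 1 TEAD element. The Hcn4 window (chr9:58822699-58822948, plus strand) held 2 GC boxes and 1 T-box factor element. Over 32851 promoter windows of this length, 32.7% held a GC box, 11.8% a T-box factor element, 9.99% a GATA element, 12.6% a TEAD element and 3.20% a MEF2 element. GC content was 70.4% for Hcn2, 71.2% for Hcn4, 66.0% for Scn4b, 61.6% for Scn4a and 53.2% for Scn7a. Matches are a description of these windows and mark no bound site. Scn3b was the only one of the 6 genes without an entry.

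Scn4a encodes Nav1.4, the α subunit of skeletal muscle. Scn4a (ENSMUSG00000001027, mm39 chr11:106209418-106244114, minus strand) had normalized read counts of 143, 165, 187 and 125 in WT libraries 1 to 4 and of 101, 121, 94 and 111 in Mettl3 KO libraries 1 to 4. All 4 Mettl3 KO values lay under the lowest WT value, and the closest were Mettl3 KO library 2 and WT library 4. The mean went from 155 ± 26.9 (SD, n = 4) to 107 ± 11.8 (SD, n = 4), 68.9% of the WT level. Scn4a fell by 0.52 on the log2 scale (limma, SE 0.11, 95% interval -0.75 to -0.30, adjusted p = 0.00367). Without Mettl3 KO library 1 the log2 fold change was -0.50 (limma adjusted p = 0.00907), and over all alternatives the adjusted p lay between 0.0012 and 0.243.

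Cacna1s, a marker of skeletal muscle, moved with Scn4a, while most of its list did not pass the test. The summed normalized read count of 11 markers was 110 to 154 in WT and 59 to 96 in Mettl3 KO libraries. This difference rested on Cacna1s, since the sums of the other 10 overlapped at 40 to 56 in WT and 32 to 43 in Mettl3 KO libraries. Of the 11, 2 fell, Cacna1s, the calcium channel of skeletal muscle (82.0 ± 16.7 to 41.0 ± 10.8, SD, n = 4), and the fast troponin Tnni2 (5.00 ± 2.16 to 1.00 ± 0.816, SD, n = 4). All Mettl3 KO values of Tnni2 (1, 0, 2 and 1) lay under the floor. The median log2 fold change of the 11 was -0.58, and the 9 that did not pass the test lay between -1.07 (Ryr1) and 0.65 (Actn3). The defining myosins were low in every library, at most 12 for Myh1, 14 for Myh2 and 6 for Myh4, while Actn3 and Pvalb reached at most 3. The part of these markers in the change of Scn4a was not tested. Scn4a as a percent of 10 summed cardiomyocyte markers overlapped between the groups, at 0.434 to 0.669 in WT and 0.335 to 0.452 in Mettl3 KO hearts.

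Scn7a encodes Nax, an atypical α subunit that is not opened by voltage in the usual way and is known as a sodium sensor of glia. Scn7a (ENSMUSG00000034810, mm39 chr2:66503769-66615258, minus strand) had normalized read counts of 414, 360, 418 and 377 in WT and of 450, 486, 450 and 512 in Mettl3 KO libraries. Every Mettl3 KO value lay above the highest WT value. The mean went from 392 ± 28.3 to 475 ± 30.2 (SD, n = 4 each), 121% of the WT level. Scn7a rose by 0.27 on the log2 scale (limma, SE 0.06, 95% interval 0.15 to 0.40, adjusted p = 0.00575), the smallest of the 4 called changes. Without Mettl3 KO library 1 it was 0.30 (limma adjusted p = 0.00405), with an adjusted p of 0.00192 to 0.469 over all alternatives.

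Fibroblast markers rose in the same hearts. Their sum over 10 genes was 4706 to 5219 in WT and 5853 to 6530 in Mettl3 KO libraries, and 9 of the 10 rose, among them Col1a1 (535 ± 41.6 to 697 ± 56.6, SD, n = 4), Pdgfra (444 ± 43.2 to 558 ± 23.3, SD, n = 4) and Lum (210 ± 15.6 to 294 ± 23.9, SD, n = 4). As a percent of that sum Scn7a was 7.65 to 8.29 in WT and 6.89 to 8.30 in Mettl3 KO libraries, so that these ranges overlapped. Schwann and glia markers summed over 11 genes to 374 to 423 in WT and 426 to 513 in Mettl3 KO libraries. Without Prnp these sums overlapped, at 177 to 231 and 169 to 266. Of the 11, 2 rose, the myelin gene Mbp (12.3 ± 1.71 to 24.8 ± 4.03, SD, n = 4) and Prnp (197 ± 9.0 to 252 ± 11.4, SD, n = 4). The defining genes Sox10, S100b and Foxd3 stayed at or under 7 in every library, and Foxd3 was at 0 in WT library 4. The part of either cell type in the change of Scn7a was not tested.

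**Figure D2:**
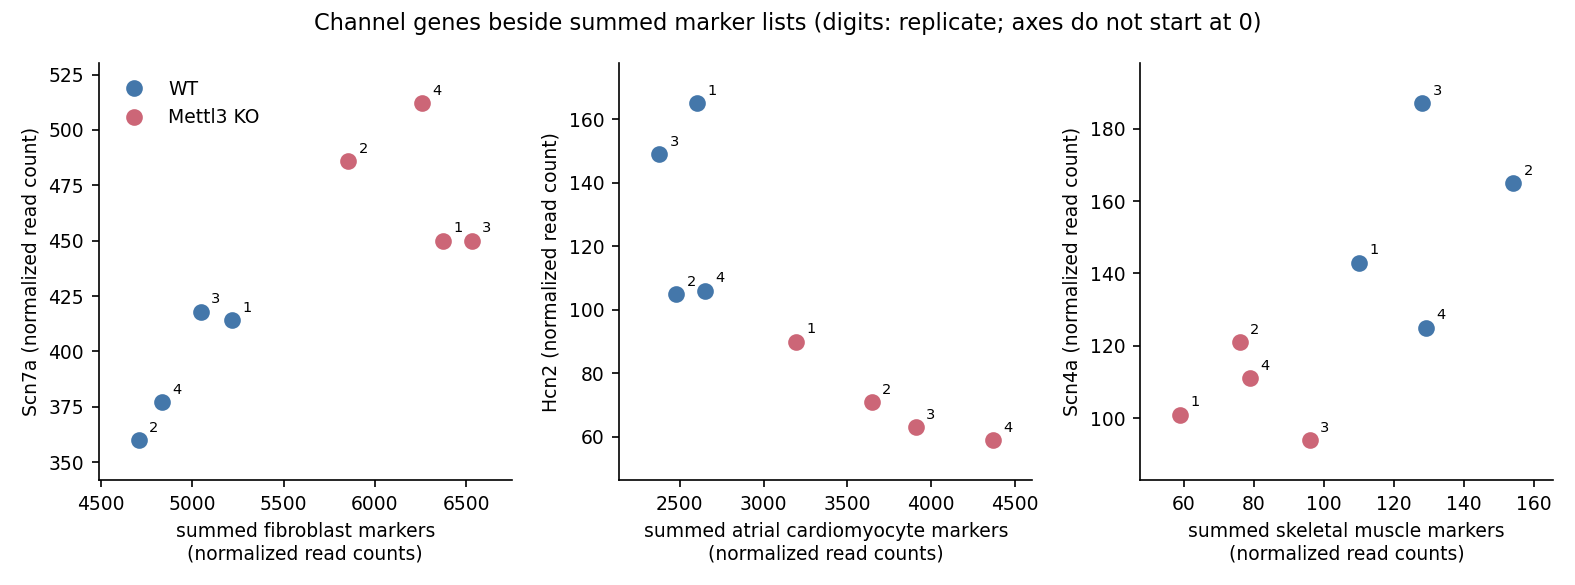
Normalized read counts of Scn7a against summed fibroblast markers (left), Hcn2 against summed atrial cardiomyocyte markers (middle) and Scn4a against summed skeletal muscle markers (right), 1 point per library with its replicate number, WT in blue and Mettl3 KO in red, on axes that do not start at 0. In each panel the groups part on both axes: fibroblast sums are 4706 to 5219 against 5853 to 6530, atrial sums 2379 to 2652 against 3192 to 4365, and skeletal muscle sums 110 to 154 against 59 to 96, of which the last overlap once Cacna1s is left out (40 to 56 against 32 to 43). The atrial sum of Mettl3 KO library 1 lies above WT through Pam, Nppa, Tbx5 and Dkk3, while its Bmp10, Myl7, Myl4 and Sln lie within the WT range.

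The β subunits differed in level and in spread. Scn4b encodes β4, which can act as the blocker of the open pore that gives resurgent sodium current. Scn4b (ENSMUSG00000046480, mm39 chr9:45049693-45065450, plus strand) had normalized read counts of 141, 74, 149 and 27 in WT libraries and of 29, 57, 14 and 18 in Mettl3 KO libraries. WT libraries 1 and 3 stood high, WT library 4 lay among the Mettl3 KO values, and the groups overlapped. The mean went from 97.8 ± 57.9 to 29.5 ± 19.4 (SD, n = 4 each), which was 3.31-fold lower. Scn4b fell by 1.62 on the log2 scale (limma, SE 0.39, 95% interval -2.44 to -0.81, adjusted p = 0.0117).

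The call for Scn4b was the least stable of the 4. It was lost without WT library 1 (-1.36, limma adjusted p = 0.0680), without WT library 3 (-1.33, adjusted p = 0.0504), without Mettl3 KO library 3 (-1.35, adjusted p = 0.0971) and without Mettl3 KO library 4 (-1.46, adjusted p = 0.0776). The call held without WT library 4 (-2.14, limma adjusted p = 0.000693), WT library 2 or Mettl3 KO libraries 1 (-1.68, adjusted p = 0.0157) and 2. It was also lost with limma voom on the values (-1.66, adjusted p = 0.0513) and with a robust variance estimate (-1.62, adjusted p = 0.262), and the adjusted p lay between 0.000693 and 0.605 over all alternatives. The coefficient of variation of Scn4b was 59.3% in WT and 65.8% in Mettl3 KO libraries. Its within-genotype SD of 1.00 on the log2 scale was reached by 0.162% of the 4931 genes whose mean lay within 2-fold of its own. Within-genotype SDs of the other 5 genes were more common at their level, with shares of 3.56% for Hcn2, 5.68% for Hcn4, 9.76% for Scn4a, 28.1% for Scn7a and 53.5% for Scn3b.

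**Figure D3:**
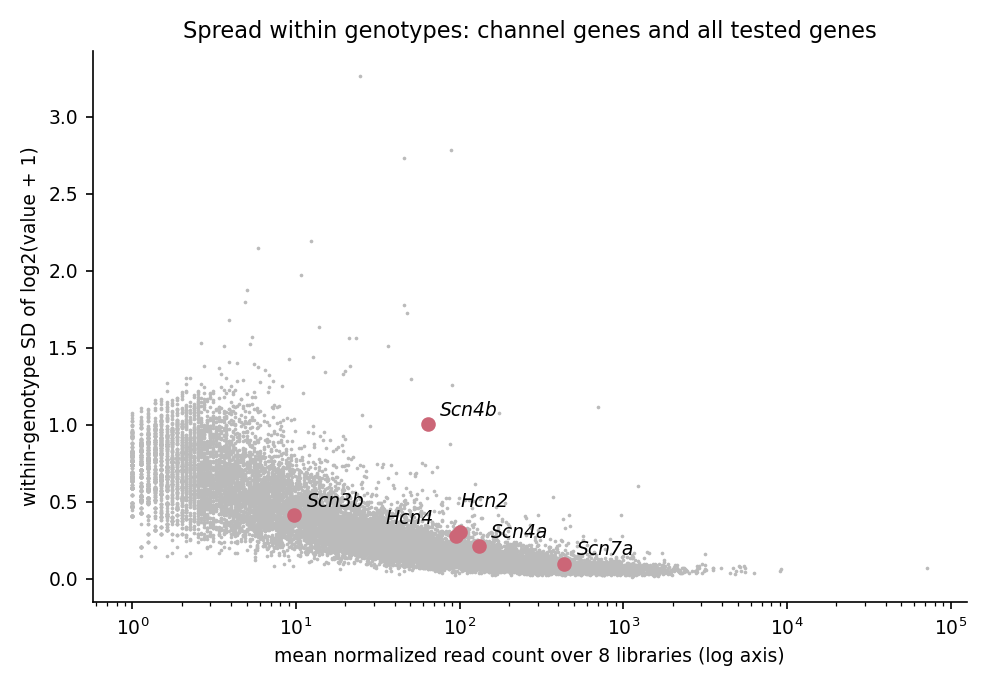
Within-genotype SD of log2(value + 1) (y axis) against the mean normalized read count over 8 libraries (x axis, log scale), with each tested gene as a grey dot and the 6 channel genes in red. Scn4b, at an SD of 1.00, sits above nearly all genes of its level, while the other 5 lie within the grey cloud.

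Scn3b encodes β3. Scn3b (ENSMUSG00000049281, mm39 chr9:40180513-40202914, plus strand) was low, at 14, 8, 13 and 6 normalized read counts in WT libraries and 9, 12, 8 and 8 in Mettl3 KO libraries, and the groups overlapped. Means were 10.3 ± 3.86 and 9.25 ± 1.89 (SD, n = 4 each). Its log2 fold change was -0.08 (limma, SE 0.31, 95% interval -0.73 to 0.56, adjusted p = 0.93), an interval that at this depth holds both a fall and a rise of a size seen in other members. Its sign turned without WT library 1 (0.08) and without WT library 3 (0.05). The ratio of Scn3b to Scn4b within a library was 0.0993, 0.108, 0.0872 and 0.222 in WT hearts and 0.310, 0.211, 0.571 and 0.444 in Mettl3 KO hearts. Mettl3 KO library 2 lay just under WT library 4, and the other 3 Mettl3 KO libraries lay above all WT libraries.

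Hcn2 encodes a pacemaker channel with faster opening than Hcn4 that is also found outside the sinus node. Hcn2 (ENSMUSG00000020331, mm39 chr10:79552468-79571942, plus strand) had normalized read counts of 165, 105, 149 and 106 in WT and of 90, 71, 63 and 59 in Mettl3 KO libraries. All Mettl3 KO values lay under the lowest WT value. The mean went from 131 ± 30.4 to 70.8 ± 13.8 (SD, n = 4 each), 53.9% of the WT level. Hcn2 fell by 0.87 on the log2 scale (limma, SE 0.14, 95% interval -1.17 to -0.57, adjusted p = 0.00037), the lowest adjusted p of the 6 genes. Without Mettl3 KO library 1, the library with the highest Hcn2 of its group, the log2 fold change was -0.99 (limma adjusted p = 6.56e-05), within a range of 3.1e-06 to 0.409 over all alternatives.

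Hcn2 as a percent of 10 summed cardiomyocyte markers was 0.368 to 0.599 in WT and 0.225 to 0.311 in Mettl3 KO libraries, without overlap. The cardiomyocyte sum itself overlapped between groups, at 27414 to 28815 and 25853 to 28964, and 1 of its 10 genes was called, Ryr2, which fell. Atrial cardiomyocyte markers summed over 12 genes to 2379 to 2652 in WT and to 3192, 3644, 3906 and 4365 in Mettl3 KO libraries 1 to 4, and 8 of the 12 rose. Mettl3 KO library 4 had the highest atrial sum and the lowest Hcn2, and Mettl3 KO library 1 the lowest atrial sum and the highest Hcn2 of its group. This order was not seen in WT hearts, where libraries 1 to 4 had atrial sums of 2603, 2481, 2379 and 2652, and library 1 with the highest Hcn2 had the second highest sum. With an index of these markers as a covariate the log2 fold change of Hcn2 was -0.41 (limma adjusted p = 0.409). That index lay at -0.866 to -0.411 in WT and at -0.231 to 1.24 in Mettl3 KO libraries, so that the index and the genotype cannot be told apart. With the same covariate no other channel gene passed the test either, at -0.46 for Scn4a (limma adjusted p = 0.243), 0.17 for Scn7a (0.469), -0.82 for Scn4b (0.605), 0.10 for Scn3b (0.962) and -0.37 for Hcn4 (0.475). SEs were larger with this covariate than in the main fit, at 0.20 against 0.11 for Scn4a, 0.10 against 0.06 for Scn7a, 0.66 against 0.39 for Scn4b and 0.23 against 0.14 for Hcn2. A lost call there goes with lower precision as well as with any change of the estimate.

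Hcn4 (ENSMUSG00000032338, mm39 chr9:58730695-58770458, plus strand), the main pacemaker subunit of the sinus node, had normalized read counts of 84, 134, 83 and 89 in WT and of 74, 98, 101 and 101 in Mettl3 KO libraries. WT library 2 was high, Mettl3 KO library 1 was low, and the groups overlapped. Means were 97.5 ± 24.5 and 93.5 ± 13.1 (SD, n = 4 each). Its log2 fold change was -0.04 (limma, SE 0.14, 95% interval -0.33 to 0.24, adjusted p = 0.920), and it turned to 0.12 without WT library 2 and to 0.07 without Mettl3 KO library 1. With the atrial marker index as a covariate it was -0.37 (adjusted p = 0.475, and 0.475 to 0.940 over all alternatives). The interval leaves room for a change of either sign.

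The ratio of Hcn4 to Hcn2 was 0.509, 1.28, 0.557 and 0.840 in WT libraries and 0.822, 1.38, 1.60 and 1.71 in Mettl3 KO libraries. Mettl3 KO libraries 2 to 4 lay above all WT libraries, and Mettl3 KO library 1 lay between WT libraries 3 and 4. WT library 2 held both the highest Hcn4 and the lowest Hcn2 of its group.

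**Figure D4:**
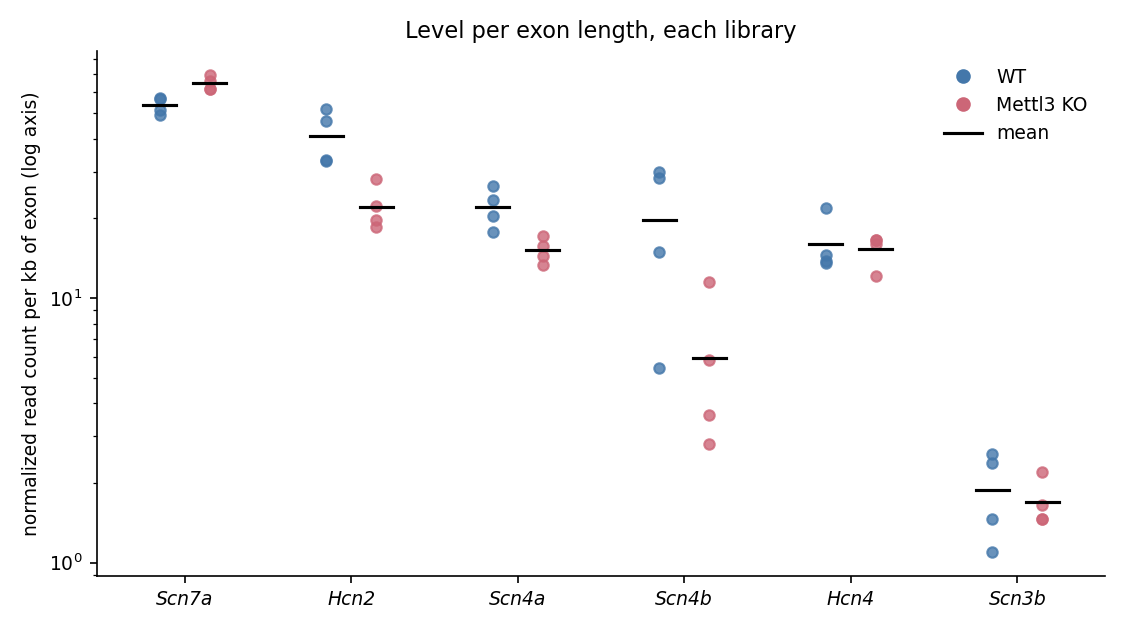
Normalized read count per kb of exon (y axis, log scale) of the 6 channel genes in each WT (blue) and Mettl3 KO (red) library, with the group mean as a bar. Scn7a lies highest with a mean of 53.5 in WT and 64.7 in Mettl3 KO hearts, Hcn2 follows, and Scn3b lies lowest at 1.88 and 1.69.

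Levels of different genes were compared per kb of exon, on the normalized read count scale. In WT hearts the order was Scn7a (53.5 ± 3.86), Hcn2 (41.1 ± 9.53), Scn4a (22.0 ± 3.82), Scn4b (19.6 ± 11.6), Hcn4 (15.9 ± 4.00) and Scn3b (1.88 ± 0.707), as level per kb with SD and n = 4. Neighbours whose ranges overlapped were Scn7a (49.1 to 57.0) with Hcn2 (32.9 to 51.6), Scn4a (17.8 to 26.6) with Scn4b (5.42 to 29.9), and Scn4b with Hcn4 (13.6 to 21.9). Scn3b (1.10 to 2.56) lay under all others in every library. In Mettl3 KO hearts the order was Scn7a (64.7 ± 4.12), Hcn2 (22.1 ± 4.31), Hcn4 (15.3 ± 2.14), Scn4a (15.2 ± 1.67), Scn4b (5.92 ± 3.89) and Scn3b (1.69 ± 0.347). There Scn7a (61.3 to 69.8) stood clear of Hcn2 (18.5 to 28.2), Hcn4 (12.1 to 16.5) and Scn4a (13.4 to 17.2) overlapped, and Scn4b (2.81 to 11.4) lay under both.

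Among 7 other sodium channel subunits that were tested, 1 rose, 1 fell and 5 did not pass the test. Nalcn, the sodium leak channel, had means of 13.3 ± 6.55 in WT and 28.0 ± 5.16 in Mettl3 KO hearts (SD, n = 4), and rose by 1.16 on the log2 scale (limma, SE 0.30, adjusted p = 0.0193). Scn10a, the α subunit Nav1.8 of sensory neurons, had means of 30.8 ± 5.06 and 15.8 ± 6.95 (SD, n = 4), and fell by 1.02 on the log2 scale (limma, SE 0.27, adjusted p = 0.0205). Nalcn lost its call without WT library 4 and without Mettl3 KO libraries 2, 3 or 4 (adjusted p 0.0592 to 0.0914), and Scn10a without WT libraries 1, 3 or 4 and without Mettl3 KO libraries 2, 3 or 4 (0.0504 to 0.0828). Over all alternatives the limma adjusted p was 0.01 to 0.406 for Nalcn and 0.00383 to 0.98 for Scn10a, whose sign turned with the atrial marker index as a covariate (log2 fold change 0.045, limma adjusted p = 0.98). The neuron markers summed over 6 genes to 135 to 152 in WT and 80 to 118 in Mettl3 KO libraries. Of these 1 fell, the receptor Ret (70.0 ± 9.38 to 32.0 ± 10.1, SD, n = 4), and the sums of the other 5 overlapped at 68 to 86 and 61 to 83. The part of these genes in the change of Scn10a was not tested.

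The pacemaker channel gene Hcn3 was at most 2 in any library, under the floor, and was not tested.

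**Figure D5:**
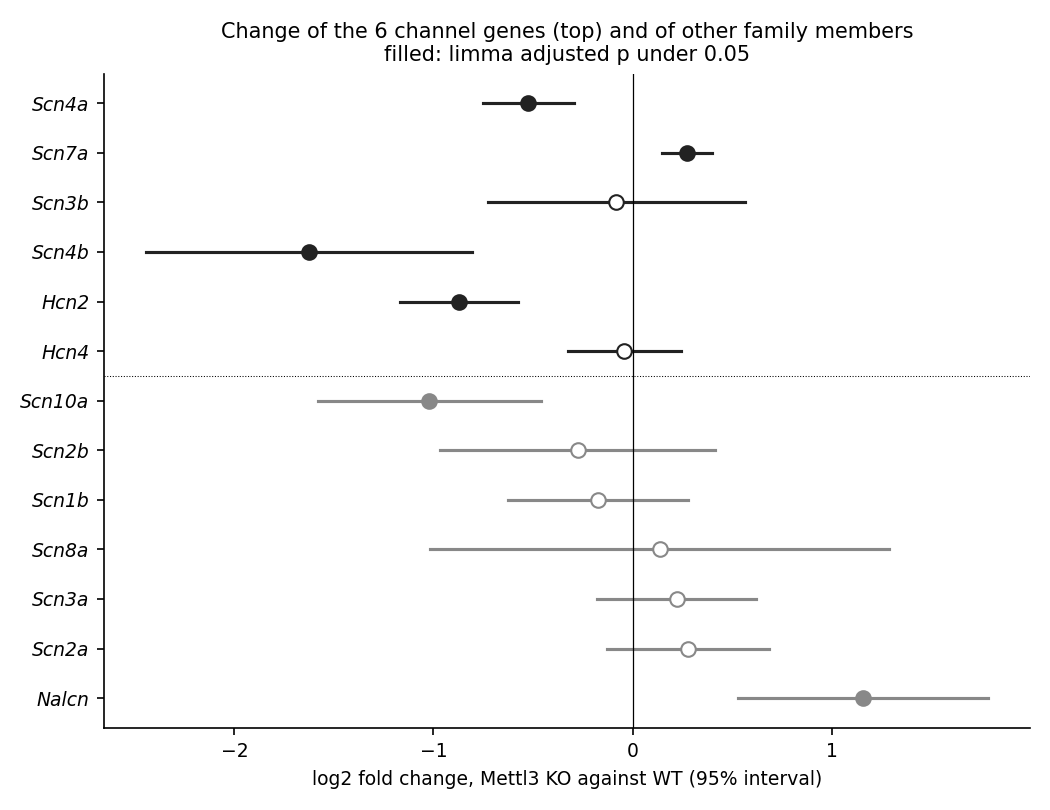
Log2 fold change, Mettl3 KO against WT, with its 95% interval (x axis) for the 6 channel genes (black, above the dotted line) and 7 other sodium channel genes (grey), where filled points have a limma adjusted p under 0.05. Scn4b (-1.62), Hcn2 (-0.87) and Scn4a (-0.52) lie left of 0, Scn7a (0.27) lies right of it, and the intervals of Scn3b and Hcn4 include 0.

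Over all lists of related genes, 50 were tested besides the 6 members, of which 6 rose, 3 fell and 41 did not pass the test, with a median log2 fold change of 0.05. Over all tested genes 4.72% rose and 3.19% fell. The 6 and 3 were not stable: with 1 library left out, 1 to 6 were called higher (1 without Mettl3 KO library 3, 2 without Mettl3 KO library 2 or 4, 3 without WT library 3 or 4) and 0 to 3 lower (0 without WT library 1 or 3, 1 without Mettl3 KO library 2, 3 or 4). With the atrial marker index as a covariate, or without limma's mean-variance trend, 0 were called in either direction. Of 21 partners and regulators of sodium channels, 3 rose, the cardiac leucine-rich repeat gene Lrrc10 (275 ± 26.7 to 330 ± 9.32, SD, n = 4, log2 fold change 0.27, limma adjusted p = 0.0153), ankyrin-G Ank3 (0.16, adjusted p = 0.0169) and caveolin-3 Cav3 (0.24, adjusted p = 0.0483). Those that fell were the scaffold Dlg1 (-0.18, limma adjusted p = 0.0204) and the sodium channel regulator Fgf13 (253 ± 13.3 to 215 ± 5.72, SD, n = 4, -0.23, adjusted p = 0.0266). The call for Cav3 was lost under 17 of 22 alternatives, each left-out library among them, with an adjusted p of 0.0239 to 0.153. Lrrc10, Ank3, Dlg1 and Fgf13 lost their calls under 5 or 6 alternatives each, with the highest adjusted p at 0.571, 0.720, 0.393 and 0.352. Among 7 partners and regulators of HCN channels the lowest limma adjusted p was 0.347, for Vapb (388 ± 13.7 in WT and 414 ± 11.6 in Mettl3 KO hearts, SD, n = 4).

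Of 15 tested genes of the conduction system and sinus node, 2 rose, both calcium channel α subunits known from pacemaking. Another such subunit of the list, the T-type Cacna1g, did not pass the test (156 ± 26.4 to 161 ± 16.3, SD, n = 4, log2 fold change 0.06, limma adjusted p = 0.828). Cacna1d, the L-type subunit Cav1.3, stood at 67, 63, 61 and 55 normalized read counts in WT libraries, against 91, 74, 90 and 91 in Mettl3 KO libraries (61.5 ± 5.00 to 86.5 ± 8.35, SD, n = 4). It rose by 0.48 on the log2 scale (SE 0.11), with a limma adjusted p of 0.00891, and of 0.00394 to 0.229 over the alternatives. Cacna1h, the T-type subunit Cav3.2, stood at 130, 114, 75 and 111 in WT libraries, against 144, 145, 148 and 150 in Mettl3 KO libraries, without overlap, and rose by 0.47 on the log2 scale (limma, SE 0.12, adjusted p = 0.0148). WT library 3 was the lowest, and without it the log2 fold change was 0.31 (limma adjusted p = 0.0366). With the atrial marker index as a covariate it was 0.25 (adjusted p = 0.611). Its call was lost without Mettl3 KO libraries 2, 3 or 4 (adjusted p 0.0526 to 0.0649), and the adjusted p was 0.0053 to 0.611 over the alternatives. The node transcription factors Tbx3 (161 to 184 in WT and 135 to 175 in Mettl3 KO libraries), Shox2 (12 to 18 and 14 to 27) and Tbx18 (34 to 49 and 37 to 51) did not pass the test.

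The genes with profiles most like each called member were sought among the 12027 genes that averaged 20 or more, by the root mean square difference of log2(value + 1) from the WT mean over the 8 libraries. This measure follows the genotype change as well as the spread within groups, so likeness to a called member is in part a like change. For Hcn2 the nearest was Lepr, the leptin receptor (0.141), with 78, 58, 80 and 48 in WT libraries and 39, 35, 32 and 35 in Mettl3 KO libraries, followed by Sec14l5 (0.193) and Ly75 (0.211). For Scn4a they were Tcf15 (0.112), Scara5 (0.115) and Manf (0.116), and for Scn7a they were Ift43 (0.0542), Fam219b (0.0557) and Ptar1 (0.0627), of which Ift43 and Fam219b were not called.

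For Scn4b the nearest profile was that of Kcne1, a β subunit of a cardiac potassium channel, at a far larger difference of 0.776. Kcne1 had 111, 47, 96 and 67 normalized read counts in WT libraries and 34, 23, 25 and 18 in Mettl3 KO libraries, without overlap (log2 fold change -1.60, limma adjusted p = 4.57e-05, and 5.91e-07 to 0.143 over the alternatives). WT libraries 1 and 3 were the highest WT libraries for Kcne1, Scn4b and Hcn2 alike. Gm40652 (0.794) and Nt5dc2 (0.799) followed for Scn4b.

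None of the neighbouring genes found within 10 kb of a member was called. Polrmt, on the opposite strand and 14 bases from Hcn2, had a log2 fold change of -0.02 (limma adjusted p = 0.927), and Bsg, 4664 bases away on the same strand, -0.07 (adjusted p = 0.561). Scn2b, another β subunit gene, 8324 bases from Scn4b on the same strand, had 5, 12, 11 and 14 normalized read counts in WT libraries and 7, 6, 8 and 12 in Mettl3 KO libraries (-0.27, limma adjusted p = 0.725). Cd79b, 3829 bases from Scn4a on the same strand, was low, at most 5 in any library (-0.65, SE 0.60, limma adjusted p = 0.619). Gramd1b, on the opposite strand and 1614 bases from Scn3b, had a log2 fold change of 0.12 (limma adjusted p = 0.766).

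The letters GGACT, the commonest form of the m6A consensus, were counted in the longest coding transcript of each gene, since Mettl3 writes m6A. Hcn2 held 6 in 3195 bases (1.88 per kb, above 85.9% of 14384 tested genes) and Scn4b 8 in 4982 bases (1.61 per kb, above 77.8%). The other 4 genes lay under the median of 1.05 per kb, at 0.964 for Scn3b, 0.758 for Scn4a, 0.681 for Scn7a and 0.654 for Hcn4. The median was 1.06 per kb over genes called higher and 1.02 over genes called lower. No m6A was measured in these libraries, and the counts describe the sequence alone.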

How the data were processed

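Total RNA (1 µg) of hearts was sequenced as stranded libraries of 72 base single-end reads. Trimming (Trimmomatic 0.39), alignment to mm39 with Ensembl 109 (STAR 2.7.11a), removal of duplicates (Picard 3.1.1) and of multi-mapping, ribosomal and mitochondrial reads, and strand-specific exon counting (featureCounts 2.0.4) had been done by the authors, according to their methods. Leaving out multi-mapping reads lowers genes with near-identical copies. The values the authors deposited are a score, counts normalized by the authors with DESeq2 1.36.0 and rounded to whole numbers. No negative binomial test was run, and limma voom on these values and on recovered reads served as alternatives.

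After a filter at a mean of 1, which dropped 2732 genes and kept 20313, limma 3.58.1 (R 4.3.3) was run on log2(value + 1) for genotype alone, with its mean-variance trend. P was two-sided and adjusted by Benjamini-Hochberg over all tested genes. Fold changes on this scale understate the change of low genes. On simulated data, 200 genes changed by 0.5 or by 1 on the log2 scale were recovered at 37.0% and 96.0%. The simulation gave every gene the same set variation beyond counting error, and the changed genes all averaged 20 or more. These shares are therefore not those of the 6 genes, where Scn4b varied by 59.3% in WT and 65.8% in Mettl3 KO libraries, and Scn3b averaged 10.3 in WT. Reads were recovered from low values by maximum likelihood (factors 0.927 to 1.11). The 6 members, the lists, the tests and the alternatives were chosen with earlier results of these data known. Named were the members, Mettl3, Hcn3, list genes with an adjusted p under 0.05, 3 nearest profiles per called member, neighbours within 10 kb and markers of lists that moved with a member. Vapb, Cacna1g, Tbx3, Shox2, Tbx18, and the libraries remarked on, were picked after their values were seen. Exon lengths came from GENCODE M21, for the 96.2% of tested genes with a matching identifier, without its coordinates. Coding transcripts came from the same release, for 14384 tested genes. Listed genes that matched no symbol, among them Scn1a, Scn9a, Scn11a, Kcne2 and Isl1, were not analysed here, and 3 other listed genes are not reported here and were left out of sums and counts.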

Additional observations from a re-analysis of the deposited data

Results flagged for a closer look

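In groups of 4 libraries, 1 library lay far from the other 3 in 4 of 36 groups over 18 measures, where chance gives about 1 group in 20. Hcn4 in WT library 2 (134 against 83 to 89) had a gap to its nearest neighbour of 0.882 of the group's range. Hcn4 in Mettl3 KO library 1 (74 against 98 to 101) had a gap of 0.889 of the range, and this library also stood apart over all genes. Cav3 in Mettl3 KO library 1 (217 against 190 to 192) had a gap of 0.926 of the range. Cacna1d in Mettl3 KO library 2 (74 against 90 to 91) had a gap of 0.941 of the range, and this value still lay above all WT libraries.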

How the results depend on the processing

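Of 22 alternatives, 1 (voom on recovered reads) was added after seeing the data in this form, and the other 21 were set earlier, when some results of these data were known. Scn4a, Scn7a and Hcn2 kept their sign and call under 20 of 22, and Scn4b under 14. Without a mean-variance trend, limma called 321 genes instead of 1607, and the values were -0.52 for Scn4a (adjusted p = 0.123), 0.27 for Scn7a (0.145), -1.62 for Scn4b (0.246) and -0.87 for Hcn2 (0.0829), with 0 list genes higher and 0 lower. With the atrial marker index as a covariate, 690 genes were called, and the values were -0.46 for Scn4a (limma adjusted p = 0.243), 0.17 for Scn7a (0.469), -0.82 for Scn4b (0.605), -0.41 for Hcn2 (0.409), -0.63 for Mettl3 (0.0619), -0.37 for Hcn4 (0.475), 0.10 for Scn3b and 0.045 for Scn10a, the latter pair with turned sign, and 0 list genes were higher and 0 lower. Scn4b also lost its call with limma voom on the values (-1.66, adjusted p = 0.0513) and with a robust variance estimate (-1.62, adjusted p = 0.262). SEs of the 6 genes, Mettl3 and Scn10a were all larger with the atrial marker index than in the main fit. The cause of these changes was not tested.

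With 1 library left out, log2 fold changes ranged from -0.62 to -0.43 for Scn4a, 0.23 to 0.31 for Scn7a, -2.14 to -1.33 for Scn4b, -0.99 to -0.75 for Hcn2, -0.29 to 0.079 for Scn3b, -0.11 to 0.12 for Hcn4 and -0.71 to -0.60 for Mettl3. Called genes ranged from 1005 (without Mettl3 KO library 3) to 1593, list genes higher from 1 to 6 and lower from 0 to 3. The fewest list genes higher came without Mettl3 KO library 3, and 0 were lower without WT library 1 or 3.

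Same-numbered libraries were not shown to be paired: correlations of their deviations were 0.0522, 0.0421, -0.0414 and 0.0878, and 3 of 8 libraries correlated best with their own number. With the replicate number as a block, 1346 genes were called. Values under the block were -0.52 for Scn4a (limma adjusted p = 0.0129), 0.27 for Scn7a (0.0248), -1.62 for Scn4b (0.0155), -0.87 for Hcn2 (0.00045), -0.08 for Scn3b (0.928) and -0.04 for Hcn4 (0.906), so no call of the 6 genes changed. Scn3b had the lowest means of the 6 genes, with 6 to 14 normalized read counts.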
